A study of Drosophila melanogaster with 16 samples.

Results

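The 10 genes described here mark or build the blood cells (hemocytes) of Drosophila melanogaster: the transcription factor genes srp, gcm and gcm2, the plasmatocyte genes Hml, He, NimC1, eater, Sr-CI and crq, and the crystal cell gene PPO2. They were found by FlyBase symbol, with all 10 matched to an identifier, among the 6774 genes that the authors listed as changed in at least 1 of 4 mutants. Of the 10, 9 were listed in some table. The RNA came from discs labelled as eye discs of L3 larvae, the epithelium from which the adult eye and parts of the head form. The mutants were labelled Ez731 and Su(z)12, both in the strain FRT2A, PH505 (here ph505) in FRT19A, and Psc Susz2 1.b8, or Psc_Suz2_1.b8 in the title (here Psc-Su(z)2) in FRT42D. Each was set against wild-type discs of its own FRT strain, so the Ez731 and Su(z)12 comparisons share their control. FRT strains carry a recombination site for making mutant tissue, and every mutant and control group carried one. The sources used here give neither the Su(z)12 allele nor the share of mutant cells in a disc nor the number of discs. Each of the 7 RNA groups was deposited as 1 sample standing for 2 replicates, whose origin the labels do not give, so no spread between replicates could be computed and the authors' p-values may measure technical spread.

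Larval blood holds plasmatocytes, which engulf microbes and dying cells and secrete clotting and matrix proteins, and crystal cells, which carry the prophenoloxidases of melanisation. The GATA factor Serpent (srp) is needed for all blood cells and also for the fat body, and the related factors Gcm and Gcm2 act in plasmatocytes and in glia. Blood cells adhere to imaginal discs and gather on damaged or tumorous ones, so disc RNA can hold blood cell RNA. E(z) and Su(z)12 belong to PRC2, which methylates histone H3, and ph, Psc and Su(z)2 to PRC1, which binds chromatin and represses developmental genes.

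In Ez731, Su(z)12 and ph505 discs every listed blood cell gene fell, and in Psc-Su(z)2 discs every listed one rose. The authors' deposited tables list only genes past a 5% false discovery rate in their edgeR test. For Ez731 the authors listed 7 of the 10 genes, all lower, where 9.87% of the 8934 genes tested were called, 6.41% lower and 3.46% higher. For Su(z)12 they listed 7, all lower, where 14.6% of 8907 genes were called, 8.73% lower and 5.89% higher. For ph505 they listed 5, all lower, where 26.7% of 8804 genes were called, 14.6% lower and 12.1% higher. For Psc-Su(z)2 they listed 8, all higher, where 69.4% of 8886 genes were called, 33.9% lower and 35.5% higher. A call alone is thus common in Psc-Su(z)2, where most genes tested were called. Of 40 pairs of gene and table, 27 were listed, and 13 were not. A missing gene may have been changed by less than the test could call or not tested at all, and it was not read as unchanged.

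The tables give 1 log2 CPM value (counts scaled to library size) and 1 log2 fold per gene, from which a level in each group was computed by reading log2 CPM as the log of the mean of mutant and control. The FRT2A control could be read in this way from both of its tables. Over 631 genes listed in both, the readings differed by a median of 0.02 on the log2 scale (5th to 95th percentile 0.00 to 0.03), while the same genes in the 2 mutants ranged from −0.74 to 0.96. Of the mutated genes, E(z) was lower in Ez731 (57.1 CPM in the control, 28.6 CPM in the mutant) and Psc in Psc-Su(z)2 (134 and 8.75 CPM). Su(z)12 was not listed in its own mutant. Su(z)2 was matched to no row for any mutant, so it may be among the rows without a symbol, and its change in Psc-Su(z)2 is unknown. The ph505 table goes against its label, with ph-p at a deposited log2 fold of 0.78 and ph-d at 0.90, so its direction was checked with Abd-B, a Hox gene that Polycomb represses. Read as mutant over control, the ph505 table put Abd-B at 0.72 CPM in the FRT19A control and 97.7 CPM in the mutant. The other tables gave 0.99 and 0.98 CPM in FRT2A and 0.83 CPM in FRT42D, against 199, 290 and 323 CPM in Ez731, Su(z)12 and Psc-Su(z)2. Over 729 genes also listed for Su(z)12, the ph505 control differed from FRT2A by a median absolute log2 value of 0.30, and by 0.78 if the table is read the other way. Every direction given for ph505 rests on this reading. Eye identity was borne out by 11 genes of the retina such as ey, so, eya and ato, at 19.0 to 506 CPM in the controls. They were lower in every table that listed them, 11 of 11 in Ez731, Su(z)12 and Psc-Su(z)2 and 10 of 10 in ph505. Depth is unknown, since no read totals came with the tables, and tables were normalized separately.

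All 3 transcription factor genes fell in the PRC2 mutants and rose in Psc-Su(z)2. The level of srp (FBgn0003507, arm 3R) was 18.0 CPM in FRT2A by the Ez731 table and 8.06 CPM in Ez731. The Su(z)12 table put it at 17.8 CPM in the same control and 7.53 CPM in the mutant. In FRT42D it was 9.86 CPM and in Psc-Su(z)2 43.2 CPM, the highest of the 5 groups with a value. The authors' deposited log2 folds for srp were −1.16 ± 0.29 in Ez731 (edgeR adjusted p = 0.00119), −1.24 ± 0.42 in Su(z)12 (edgeR adjusted p = 0.0261) and 2.13 ± 0.34 in Psc-Su(z)2 (edgeR adjusted p = 1.03e-09). A value after ± is here an approximate standard error, taken as the size of the fold over the normal quantile of the authors' p, with 2 replicates per group by the labels. The ph505 table did not list srp.

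The 2 gcm genes sat at similar low levels in FRT2A and FRT42D and moved far from them in opposite directions. The level of gcm (FBgn0014179, arm 2L) was 2.61 CPM in FRT2A and 0.41 CPM in Ez731 by 1 table, and 2.59 CPM in FRT2A and 0.36 CPM in Su(z)12 by the other. It was 2.50 CPM in FRT42D and 14.5 CPM in Psc-Su(z)2. These are deposited log2 folds of −2.66 ± 0.52 (Ez731, edgeR adjusted p = 1.06e-05), −2.87 ± 0.54 (Su(z)12, edgeR adjusted p = 2.89e-06) and 2.53 ± 0.31 (Psc-Su(z)2, edgeR adjusted p = 2.74e-15). A rise of 5.79-fold in Psc-Su(z)2 thus stands against falls of 6.32-fold and 7.29-fold in the PRC2 mutants. Its homolog gcm2 (FBgn0019809, arm 2L) was at 1.96 and 1.98 CPM in FRT2A, 0.57 CPM in Ez731, 0.30 CPM in Su(z)12, 2.21 CPM in FRT42D and 13.3 CPM in Psc-Su(z)2. The deposited log2 folds of gcm2 were −1.79 ± 0.57 (edgeR adjusted p = 0.0196), −2.72 ± 0.59 (edgeR adjusted p = 7.34e-05) and 2.59 ± 0.30 (edgeR adjusted p = 8.8e-17). Neither gene was listed for ph505. Of the factor genes, gcm had the larger fold than srp in each of the 3 tables, and the approximate 95% intervals of the 2 genes overlapped in each (for Ez731 −3.68 to −1.64 against −1.73 to −0.59).

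**Figure D1:**
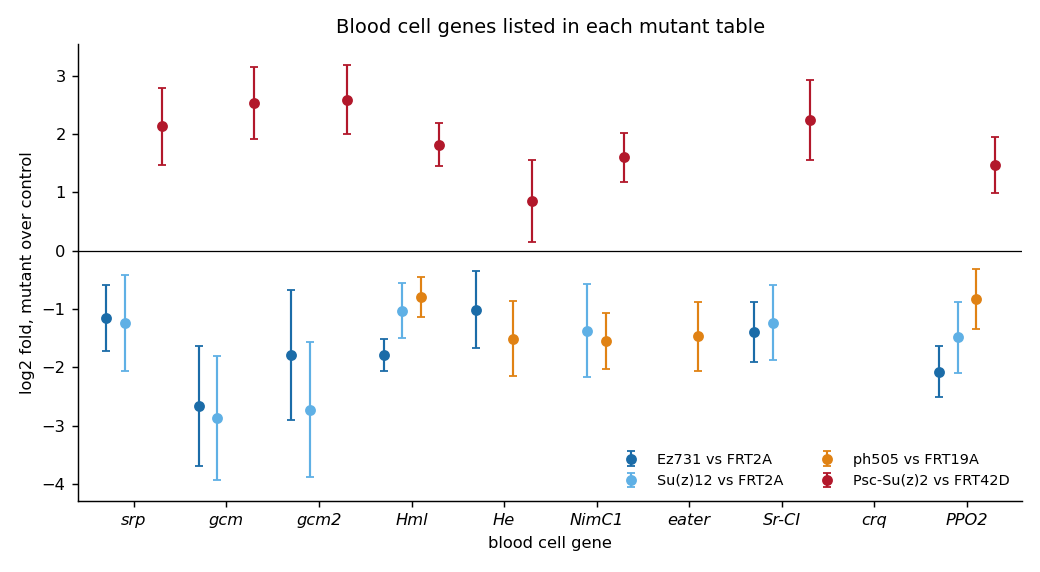
Deposited log2 fold (mutant over control, y axis) of the 10 blood cell genes (x axis) in each table that listed them, with bars for the approximate 95% interval. Every point of Ez731, Su(z)12 and ph505 lies below 0 and every point of Psc-Su(z)2 above 0, from 0.84 (He) to 2.59 (gcm2); crq has no point.

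Hml, which encodes the secreted clotting protein Hemolectin and is the usual marker of plasmatocytes, was listed in all 4 tables. Its level (FBgn0029167, arm 3L) was 196 CPM in FRT2A and 56.7 CPM in Ez731 by the Ez731 table, and 193 CPM in FRT2A and 94.9 CPM in Su(z)12 by the other. It was 93.6 CPM in FRT19A and 53.8 CPM in ph505, and 61.5 CPM in FRT42D and 216 CPM in Psc-Su(z)2. The level was thus lower in the mutant than in its control 3 times and higher once, and the 3 controls themselves differed from each other by up to 3.17-fold. The deposited log2 folds of Hml were −1.79 ± 0.14 in Ez731 (edgeR adjusted p = 9.52e-34), −1.03 ± 0.24 in Su(z)12 (edgeR adjusted p = 0.000297), −0.80 ± 0.17 in ph505 (edgeR adjusted p = 4.63e-05) and 1.82 ± 0.19 in Psc-Su(z)2 (edgeR adjusted p = 3.22e-21).

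Further plasmatocyte genes encode surface proteins. He (Hemese, FBgn0028430, arm 2L), a membrane protein of blood cells, was at 11.0 CPM in FRT2A and 5.47 CPM in Ez731, at 8.26 CPM in FRT19A and 2.90 CPM in ph505, and at 5.84 CPM in FRT42D and 10.5 CPM in Psc-Su(z)2. Its deposited log2 fold in Psc-Su(z)2 (0.84 ± 0.36, edgeR adjusted p = 0.0282) was the smallest rise of the 8 genes, and that in Ez731 (−1.01 ± 0.34, edgeR adjusted p = 0.0296) also lay near the limit of the call. In ph505 it was −1.51 ± 0.33 (edgeR adjusted p = 3.81e-05). He was not listed for Su(z)12, where 102 genes at a like FRT2A level (within 0.5 on the log2 scale) were called lower, the smallest of them at −0.72.

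NimC1 (FBgn0259896, arm 2L) encodes a Nimrod family receptor that plasmatocytes use to engulf bacteria. It was at 12.7 CPM in FRT2A and 4.92 CPM in Su(z)12, at 20.4 CPM in FRT19A and 6.97 CPM in ph505, and at 9.61 CPM in FRT42D and 29.1 CPM in Psc-Su(z)2. FRT19A was the highest control for NimC1, while FRT2A was highest for Hml and He. The deposited log2 folds were −1.37 ± 0.40 (Su(z)12, edgeR adjusted p = 0.00664), −1.55 ± 0.25 (ph505, edgeR adjusted p = 5.86e-09) and 1.60 ± 0.22 (Psc-Su(z)2, edgeR adjusted p = 5.89e-13). It was not listed for Ez731, where the smallest of 63 falls at a like FRT2A level was −0.70.

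The related receptor gene eater (FBgn0243514, arm 3R), also used in engulfing bacteria, was listed for ph505 alone. There it was at 12.5 CPM in FRT19A and 4.52 CPM in the mutant, a deposited log2 fold of −1.47 ± 0.30 (edgeR adjusted p = 1.5e-05). The scavenger receptor gene Sr-CI (FBgn0014033, arm 2L) was at 19.4 CPM in FRT2A and 7.36 CPM in Ez731, at 19.1 CPM in FRT2A and 8.15 CPM in Su(z)12, and at 6.88 CPM in FRT42D and 32.6 CPM in Psc-Su(z)2. Its deposited log2 folds were −1.40 ± 0.26 (edgeR adjusted p = 3e-06), −1.23 ± 0.33 (edgeR adjusted p = 0.00182) and 2.24 ± 0.35 (edgeR adjusted p = 5.89e-10), and ph505 did not list it. The gene crq (FBgn0015924, arm 2L), whose CD36-like product takes up apoptotic cells, was in none of the 4 tables. Its level is therefore unknown in every group.

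PPO2 (FBgn0033367, arm 2R) encodes a prophenoloxidase and stands for crystal cells. It was at 244 CPM in FRT2A and 58.0 CPM in Ez731, at 240 CPM in FRT2A and 85.8 CPM in Su(z)12, at 69.3 CPM in FRT19A and 39.1 CPM in ph505, and at 47.0 CPM in FRT42D and 130 CPM in Psc-Su(z)2. The Psc-Su(z)2 level lay above its own control and below FRT2A. The deposited log2 folds were −2.07 ± 0.22 (Ez731, edgeR adjusted p = 1.69e-18), −1.49 ± 0.31 (Su(z)12, edgeR adjusted p = 2.38e-05), −0.82 ± 0.26 (ph505, edgeR adjusted p = 0.00804) and 1.47 ± 0.24 (Psc-Su(z)2, edgeR adjusted p = 3.79e-09). In bulk discs fewer or more blood cells and less or more RNA per blood cell cannot be told apart, for PPO2 or any gene here.

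**Figure D2:**
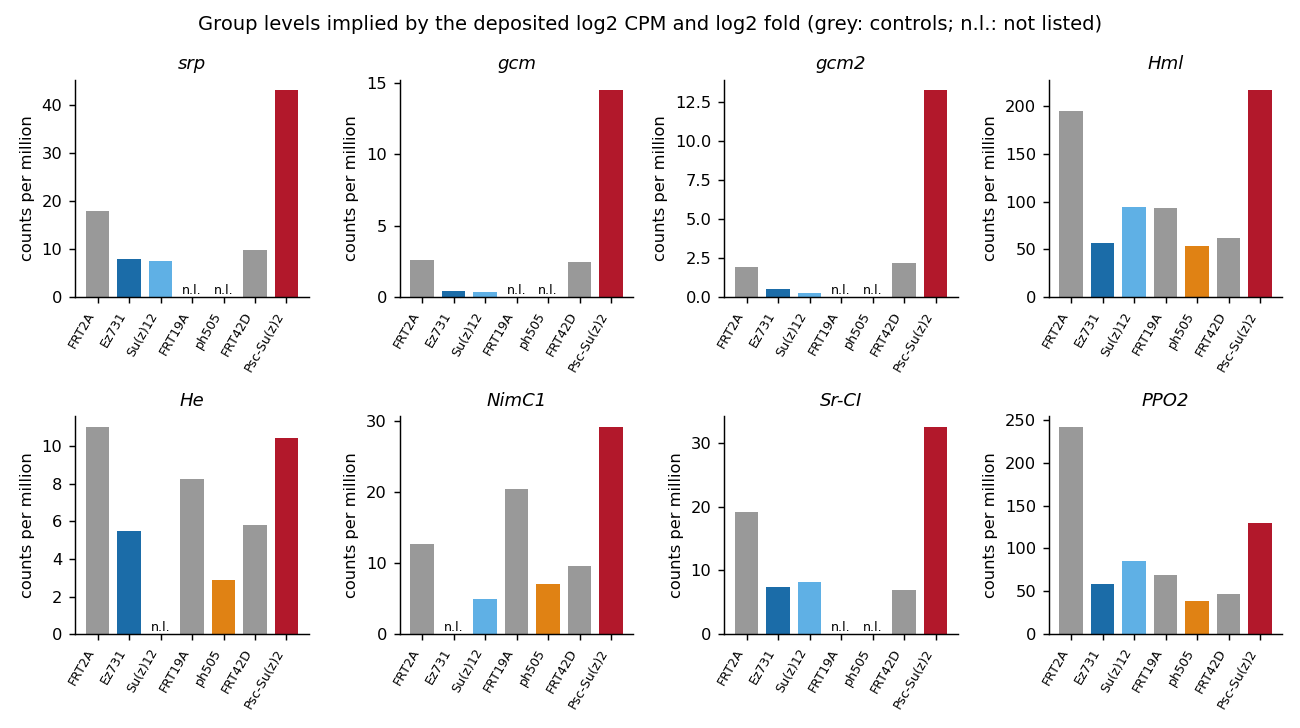
Level (CPM, y axis, linear from 0) of 8 blood cell genes in the 7 RNA groups (x axis; grey bars controls, coloured bars mutants, FRT2A as the mean of its 2 readings). Each mutant bar stands below its own control (the nearest grey bar to its left) in Ez731, Su(z)12 and ph505 and above it in Psc-Su(z)2, and the grey bars of Hml and PPO2 differ widely among the 3 controls.

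Among all genes called, the blood cell genes were not at the extremes. The median log2 fold of the listed blood cell genes was −1.79 in Ez731, −1.37 in Su(z)12, −1.47 in ph505 and 1.97 in Psc-Su(z)2. Over all lower calls of the first 3 tables the medians were −1.04, −1.14 and −0.90, and over all higher calls of Psc-Su(z)2 0.72. For gcm 3.84% of the lower calls of Ez731 and 3.98% of those of Su(z)12 had a larger fold, but for Hml in Su(z)12 and ph505 56.7% and 56.6% did. In Psc-Su(z)2 the share of higher calls with a larger fold ran from 8.85% (gcm2) to 40.7% (He). Most of the genes were below the median log2 CPM of their table, and only Hml and PPO2 reached it, Hml in all 4 tables and PPO2 in all but ph505.

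**Figure D3:**
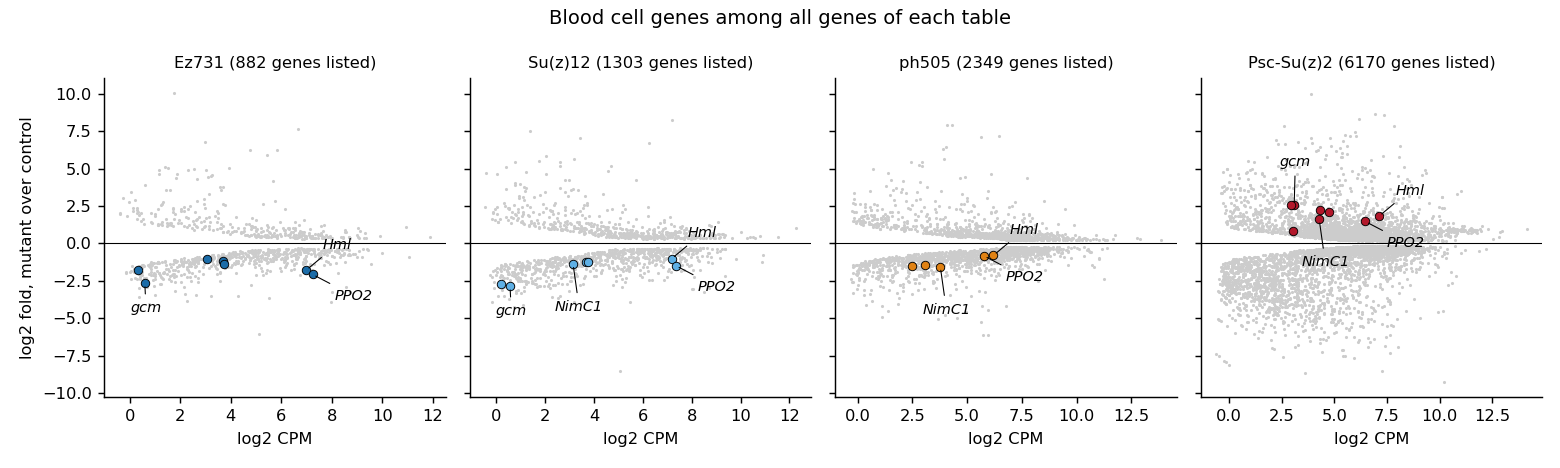
Deposited log2 fold (y axis) against log2 CPM (x axis) for every gene listed in each of the 4 tables (grey), with the listed blood cell genes in colour. The coloured points lie within the cloud of calls, below 0 in the first 3 panels and above 0 in the last.

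The turn from lower to higher in Psc-Su(z)2 was the less common pattern among shared calls. Of 461 genes lower in Ez731 and called in Psc-Su(z)2, 24.3% were higher there, and so were 7 of 7 blood cell genes. Of 641 genes lower in Su(z)12 it was 15.3%, against 7 of 7, and of 1101 genes lower in ph505 12%, against 4 of 4. The blood cell genes were chosen with earlier results of these data known, so these counts describe the list and are no test of it. They also share genes and the Psc-Su(z)2 table, and those of Ez731 and Su(z)12 share the FRT2A control. The log2 fold in Psc-Su(z)2 minus that in Ez731 was 3.61 for Hml (approximate 95% interval 3.14 to 4.07), 3.54 for PPO2 (2.89 to 4.18), 5.19 for gcm (4.00 to 6.39) and 1.86 for He (0.89 to 2.82). Against Su(z)12 the differences ran from 2.84 (Hml) to 5.40 (gcm), and against ph505 from 2.29 (PPO2) to 3.15 (NimC1). All 18 of these intervals lay above 0, as they must for genes called lower in 1 table and higher in Psc-Su(z)2. Their errors come from the p-values behind the calls, so these intervals add nothing to the called directions. Of all genes called in both tables, 26.9%, 27.3% and 28.4% had an interval above 0 for Ez731, Su(z)12 and ph505. An interval below 0 was found for 52.3%, 50.2% and 41.2%. The differences are of folds taken against different controls, so they hold the differences between those controls as well.

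Between ph505 and each PRC2 mutant only 3 blood cell genes could be compared, all called lower in both tables, so smaller differences than from Psc-Su(z)2 are built in. The genes srp, Sr-CI, gcm and gcm2 were called in both PRC2 mutants but not listed for ph505, and are left out. Hml fell by more in Ez731 than in ph505 (difference of log2 folds, ph505 minus Ez731, 0.99, approximate 95% interval 0.55 to 1.43), and PPO2 too (1.25, 0.58 to 1.92), while the interval for He held 0 (−0.49, −1.41 to 0.42). Of all 477 genes called in both, 22.9% had an interval above 0 and 28.3% one below. Against Su(z)12 the intervals of all 3 genes called in both held 0: Hml 0.23 (−0.36 to 0.81), NimC1 −0.18 (−1.11 to 0.74) and PPO2 0.66 (−0.13 to 1.45). Of all 728 such genes 25.4% had an interval above 0 and 24.7% one below. Intervals of this width leave room for differences of over 1 on the log2 scale for NimC1 and PPO2. In all, 24 such intervals were computed, without adjustment for their number.

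The 3 control discs differed in their blood cell transcripts. FRT2A over FRT42D, the ratio of implied levels was 5.14 for PPO2, 3.17 for Hml, 2.80 for Sr-CI, 1.89 for He, 1.82 for srp and 1.32 for NimC1, but 1.04 for gcm and 0.89 for gcm2. On the log2 scale the ratio of PPO2 (2.36), Hml (1.66) and Sr-CI (1.48) lay above the 95th percentile (1.23) of the 1238 genes with a level in both, while gcm (0.06) lay at the median (0.06). A gene has a level in a control only if it was called against that control, so these 1238 are called genes and not all genes tested. Retina genes hardly differed between these controls, with log2 ratios of −0.07 to 0.19 for all 11. FRT2A over FRT19A the ratio was 3.49 for PPO2, 2.08 for Hml, 1.34 for He and 0.62 for NimC1. The log2 ratios of 10 retina genes ran from −0.42 to 0.08 between FRT2A and FRT19A, with 8 of them below 0. These ratios rest on groups of 1 deposited sample and on tables normalized separately, and they were not tested.

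Set against FRT2A in place of its own control, Psc-Su(z)2 kept a higher level of some blood cell genes only. The ratio of Psc-Su(z)2 to FRT2A was 6.75 for gcm2, 5.57 for gcm, 2.41 for srp, 2.30 for NimC1 and 1.69 for Sr-CI. It was 1.11 for Hml, 0.95 for He and 0.54 for PPO2, so these 3 genes were at about the FRT2A level or below it. Over the 1238 genes with both levels the log2 ratio had a median of −1.24, with a 5th to 95th percentile range of −5.48 to 2.73, and gcm2 (2.75) lay just beyond its upper end.

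**Figure D4:**
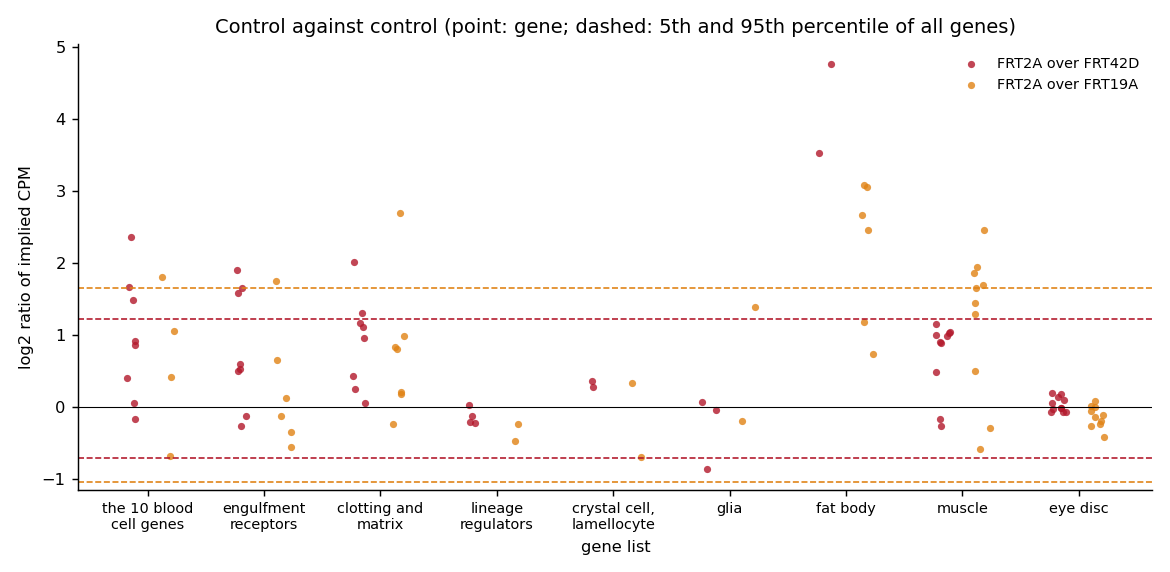
Log2 ratio of implied CPM between controls (y axis, red FRT2A over FRT42D, orange FRT2A over FRT19A) for genes of each list (x axis), each point a gene with a level in both controls. Dashed lines mark the 5th and 95th percentile of all genes with a level in both controls, which are called genes only. Retina genes lie close to 0 for FRT2A over FRT42D and from −0.42 to 0.08 for FRT2A over FRT19A. PPO2 is the highest of the 10 blood cell genes at 2.36 (FRT2A over FRT42D), and fat body genes reach 4.76.

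Genes of other tissues moved along with the blood cell genes in part. Fat body storage and secretion genes fell in the first 3 tables, 6 of 6 in each, with median deposited log2 folds of −3.05, −2.99 and −3.13, and 2 were called in Psc-Su(z)2, Lsp1beta at 0.64 and Fbp1 at −1.59. Their implied level in FRT2A was 66.0 CPM (Fbp2) to 751 CPM (Lsp1beta) and 11.6 and 27.2 times that in FRT42D for Fbp1 and Lsp1beta. Muscle and adepithelial genes were lower in 9 of 10, 9 of 9 and 13 of 13 calls of Ez731, Su(z)12 and ph505. Over all genes 573 of 882, 778 of 1303 and 1285 of 2349 calls were lower there. In Psc-Su(z)2 8 of 14 muscle calls were lower, near the share over all genes (3016 of 6170), with Mhc at −4.63 and twi, a marker of muscle precursors, at 2.76. So in Ez731, Su(z)12 and ph505 the called blood cell and fat body genes and most called muscle genes were lower together. In Psc-Su(z)2 the blood cell genes rose while muscle genes went both ways. Mhc, Prm (−4.88), Tm2 (−4.58) and up (−4.45) were among those that fell, and 6 rose, with htl (1.21) and Mlc2 (1.15) among them. A summed level per group could not be formed, since a gene that is not listed has no value. The part of attached tissue in these results was not tested.

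Glial genes bear on gcm and gcm2, which also act in glia. Of 9 glial genes 3 were called in Ez731, moody at 0.45, loco at −0.44 and alrm at −2.40 by the deposited log2 fold, and in Su(z)12 4, with alrm at −3.14 and Eaat1 at −1.92. In ph505 2 were higher and 2 lower, with Eaat1 at 1.25 and Gli at −0.66. Over all genes tested 9.87%, 14.6% and 26.7% were called in Ez731, Su(z)12 and ph505. In Psc-Su(z)2 repo, the glial fate gene that Gcm activates, fell (−2.92, 25.3 CPM in FRT42D and 3.35 CPM in the mutant), as did Eaat1 (−2.20), Gli (−1.69) and wrapper (−1.21), while moody rose (1.70). Of the 7 glial genes called in Psc-Su(z)2, where gcm and gcm2 rose, 4 were lower, repo included, which is near the share over all genes (3016 of 6170 calls lower).

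A further 60 genes of blood cell biology, 59 of them matched to an identifier, were sorted into 4 lists, which were drawn up with the direction of the blood markers known. Among clotting, matrix and secreted proteins, 6 of 8 calls were lower in Ez731, 6 of 9 in Su(z)12 and 6 of 7 in ph505. Over all genes 573 of 882, 778 of 1303 and 1285 of 2349 calls were lower, so the counts in Ez731 and Su(z)12 are not far from that share. In Psc-Su(z)2 10 of 10 calls of this list were higher, where 3154 of all 6170 calls were. The median log2 folds of the list were −1.21, −0.95, −1.13 and 1.11. The collagen IV genes Col4a1 and vkg, which are also made in fat body, had deposited log2 folds of −1.37 and −1.45 in Ez731, −1.04 and −1.02 in Su(z)12, −1.16 and −0.99 in ph505, and 0.79 and 1.21 in Psc-Su(z)2. Pxn (Peroxidasin) was at −1.36, −0.95, −1.13 and 0.68. The exceptions were Ppn (Papilin), higher in all 4 tables (0.57, 0.54, 0.40 and 2.34), LanA (0.52 and 0.78 in the PRC2 mutants) and Tig (0.78 in Su(z)12). The largest rises in Psc-Su(z)2 were those of the transglutaminase gene Tg (4.76, from 6.65 to 181 CPM) and of Tig (4.69, from 48.4 to 1254 CPM), both linked to clots or matrix.

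Engulfment and scavenger receptors were mixed in Psc-Su(z)2. They were lower in 8 of 8 calls of Ez731, 5 of 7 of Su(z)12 and 8 of 9 of ph505, and 8 of 13 were higher in Psc-Su(z)2 (median log2 folds −1.66, −1.38, −1.12 and 1.11). Over all genes 573 of 882, 778 of 1303 and 1285 of 2349 calls were lower in the first 3, and 3154 of 6170 were higher in Psc-Su(z)2. The counts in Su(z)12 and Psc-Su(z)2 are thus not far from those shares. Among the Nimrod genes NimB5 rose there (2.09) like NimC1, and NimC4, used to clear apoptotic cells, rose by 4.62 from a level of 0.11 CPM. NimA (−3.72), NimB2 (−2.31) and NimC2 (−1.95) fell. NimB2 was at 16.6 CPM in FRT2A, 4.93 CPM in FRT19A, 4.45 CPM in FRT42D and 0.90 CPM in Psc-Su(z)2, and was lower in all 4 mutants (−1.73, −1.38, −1.20 and −2.31). The peptidoglycan receptor gene PGRP-LC moved as the 10 genes did (−0.95, −1.32, −0.76 and 2.34), while Tep1 fell in Ez731 (−1.99), ph505 (−2.18) and Psc-Su(z)2 (−1.93). The other Tep genes were mixed in Psc-Su(z)2, with Tep3 lower (−2.70) and Tep2 (2.73) and Tep4 (1.59) higher. Tep2 (0.65) and Tep3 (0.63) were the higher calls of this list in Su(z)12.

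Lineage regulators did not move as a group. Of 16, 3, 4, 11 and 15 were called in the 4 tables, in the order used above, with 1, 2, 7 and 8 of them higher. Over all genes tested 9.87%, 14.6%, 26.7% and 69.4% were called, with 309 of 882, 525 of 1303, 1064 of 2349 and 3154 of 6170 calls higher. The Runx gene lz, needed for crystal cells and in the eye, was lower in all 4 (−1.08, −1.80, −0.999 and −2.42), although PPO2, the crystal cell gene, rose in Psc-Su(z)2. The ligand genes Pvf1, Pvf2 and Pvf3 of the receptor Pvr, which blood cells need to survive and migrate, rose in Psc-Su(z)2 (2.29, 2.69 and 2.78), while Pvr itself was slightly lower (−0.35).

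**Figure D5:**
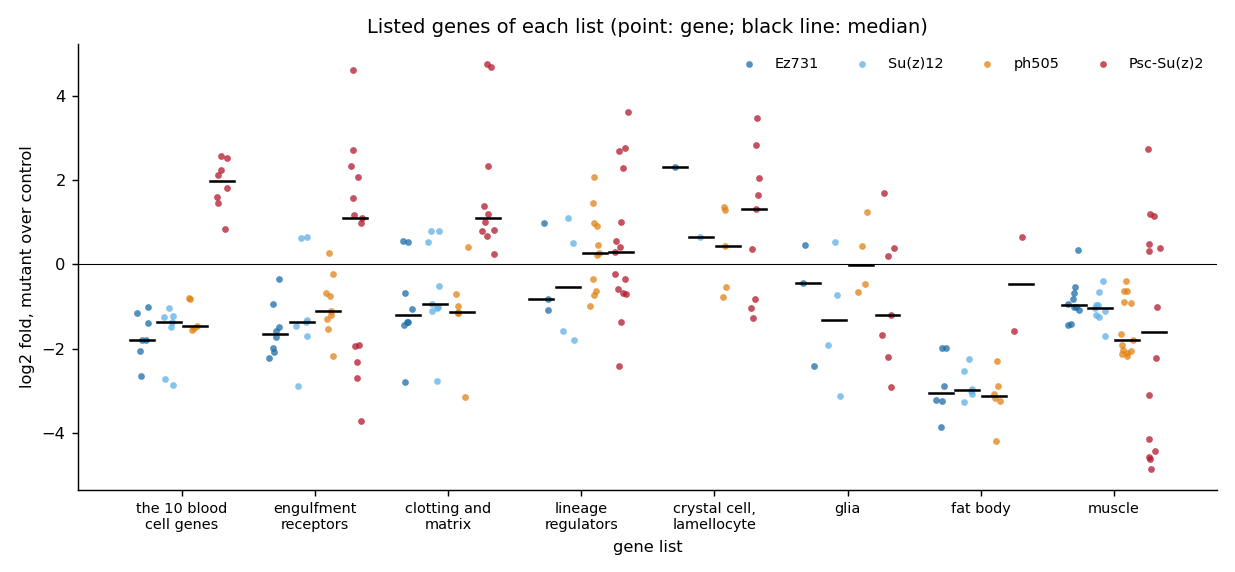
Deposited log2 fold (y axis) of the listed genes of each gene list (x axis) in the 4 tables, each point a gene and each black line the median of the list in that table. The 10 blood cell genes, the engulfment receptors and the clotting and matrix genes have medians below 0 in 3 tables and above 0 in Psc-Su(z)2 (1.97, 1.11 and 1.11), and fat body genes have the lowest medians in the first 3.

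Only Hml and PPO2 were called in all 4 tables, as 2 of 333 such genes. The genes nearest to the midpoint of their 4 folds (−1.93, −1.26, −0.81 and 1.64), by Euclidean distance, were FBgn0261362, which the gene name table does not hold (−2.12, −1.55, −0.79 and 1.38, distance 0.44), and vkg (distance 0.71). CG30046, FBgn0034886, Mlc2, Col4a1, Glt, Pxn, PGRP-LC and rau followed, at distances of 0.98 to 1.31. Of these 10 genes vkg, Col4a1, Glt, Pxn and PGRP-LC are on the blood lists and Mlc2 on the muscle list. FBgn0261362 and FBgn0034886 had no symbol to match, so either may also be a gene of these lists. The likeness is over 4 folds, 2 of which share the FRT2A control.

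Neighbouring genes were looked up by their order in the Release 6 annotation. The 10 genes lie on 4 chromosome arms, with He and NimC1 directly next to each other in a Nimrod gene cluster and gcm and gcm2 separated by 2 protein-coding genes. Of the 34 other protein-coding genes within 2 places, 5 were lower and 1 higher in Ez731, 7 and 2 in Su(z)12, 9 and 0 in ph505, and 13 and 4 in Psc-Su(z)2. Over all genes tested, 6.41% were lower and 3.46% higher in Ez731, 8.73% and 5.89% in Su(z)12, 14.6% and 12.1% in ph505, and 33.9% and 35.5% in Psc-Su(z)2. The neighbours include genes that the authors may not have tested, so the shares are not over the same kind of set. The exception in Ez731 lies between the gcm genes: CG4382 rose by a deposited log2 fold of 6.77 in Ez731 and 5.83 in Su(z)12, while gcm and gcm2 on either side fell. The log2 CPM of CG4382 was 2.98 and 2.04 in these comparisons, so with such folds its implied control level was very low. NimC2, 2 places from NimC1, fell in Psc-Su(z)2 (−1.95) where NimC1 rose (1.60). Beside srp, the GATA factor gene pnr fell in ph505 (−0.58) and Psc-Su(z)2 (−1.81), and GATAe was not listed. Polycomb binding at these genes was not analysed here, since the region lists are of an older build than the annotation.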

How the data were processed

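RNA-seq of L3 eye discs was used. The submitters' processing notes name build BDGP5, edgeR 2.6.2, TopHat2 2.0.8b and Bowtie2 2.1.0.0. The log2 fold and log2 CPM values and the p-value and false discovery rate are the authors', per the file headers. The ChIP-seq region lists were not used. The number of genes tested is the most common value of rank × false discovery rate / p. Group levels and approximate standard errors were computed as the report says, with 95% normal intervals, and checked on simulated counts. Computation used matplotlib 3.10.9, pandas 2.3.3, scipy 1.17.1, numpy 2.4.6 and Python 3.11.15. Members and lists were chosen with earlier results of these data known. Named genes were the 10 genes, up to 4 called genes per list and table with the largest folds, targeted genes and the 10 nearest in pattern. The others (Abd-B, neighbours and list genes named for a contrast) were chosen after their values were seen. Per the labels, RNA libraries had 15 cycles of PCR, and no molecular identifiers are named.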

Additional observations from a re-analysis of the deposited data

How the results depend on the processing

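A 1% false discovery rate or a minimum of 2-fold only removes genes: 23 and 24 of the 27 calls were left, and the number per table stayed within 1.5 times except for ph505, with 3 of 5 at 2-fold or more. At or above the median log2 CPM, 2, 2, 1 and 2 genes were left in the 4 tables as ordered in the report, in ph505 Hml alone (−0.80), and 20 of 27 calls lay below it. With the ph505 direction turned, the folds of Hml, NimC1, He, PPO2 and eater would be 0.80, 1.55, 1.51, 0.82 and 1.47 (median 1.47). The differences from Psc-Su(z)2 would then be −0.66 (He), 0.049 (NimC1) and 0.64 (PPO2), with intervals that hold 0, and 1.02 (Hml), whose interval (0.51 to 1.52) does not. Those of ph505 minus Ez731 or Su(z)12 would all lie above 0, for He at 2.52 against Ez731 and for NimC1, Hml and PPO2 at 2.92, 1.83 and 2.31 against Su(z)12. With standard errors doubled, an alternative added after the data were seen, as was that turn of the differences, the intervals of He (1.86, Psc-Su(z)2 minus Ez731) and PPO2 (1.25, ph505 minus Ez731) took in 0. A t quantile with 2 degrees of freedom gave narrower intervals, which left out 0 for He (−0.49, ph505 minus Ez731) and for Hml (0.23), NimC1 (−0.18) and PPO2 (0.66) in ph505 minus Su(z)12. That setting turned small p-values into implausibly small errors, such as 4.2e-11 for Hml in Psc-Su(z)2 minus Ez731. Its intervals are therefore not a measure of precision. With log2 CPM read as the mean of logs, the FRT2A readings of the blood cell genes differed by a median of 0.12 in place of 0.02, and 18 of 54 levels moved by more than their approximate error. The planned overlap with Polycomb regions and leaving out single replicates were not run, the latter for want of values per replicate. No paired analysis was possible because each group is 1 deposited sample.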

Other observations

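Genes that mark lamellocytes, the large blood cells that encapsulate parasites, rose in Psc-Su(z)2 in part. By the authors' deposited table atilla, the usual lamellocyte surface marker, was at 2.83 there (from 4.01 to 28.6 CPM), ItgaPS4 at 2.05 and cher, which encodes filamin and is also expressed in epithelia, at 3.48 (from 343 to 3837 CPM), while the lamellocyte prophenoloxidase gene PPO3 was lower (−1.05, from 4.80 to 2.32 CPM). Of the 10 crystal cell and lamellocyte genes 9 were found among the calls of that table, 6 of them higher. Over all genes tested 69.4% were called there and 3154 of 6170 calls were higher, so the count is near that of genes in general. PPO1, also of this list, was matched to no listed row, and it may be among the rows whose identifier has no symbol. ItgaPS4 was higher in Ez731 (2.31) and ph505 (1.37) too, at 0.56 to 1.17 CPM in the controls. It was the only gene of that list found by symbol among the calls of Ez731. In Su(z)12 cher was the only one found (0.64). In ph505 3 of those found were higher and 2 lower, where 1064 of 2349 calls over all genes were higher.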
